A study of Mus musculus with 3 samples.

Results

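The immunoproteasome, the peptide loading machinery of class I molecules and the invariant chain were followed as 10 genes, chosen by name: Psmb8, Psmb9, Psmb10, Psme1, Psme2, Tap1, Tap2, Tapbp, Nlrc5 and Cd74. These genes were chosen with earlier results of these data known. They are 10 of the 19938 genes that the arrays measured through probes carrying 1 gene symbol, and a gene's value is the mean of those probes. All 10 members were measured, by 28 probes in all, 19 of them for Nlrc5 and 1 for each of the other 9.

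The samples were CD4 T cells of OT-II mice (B6.Cg-Tg(TcraTcrb)425Cbn/J), whose transgenic receptor recognises an ovalbumin peptide, and their age is not given in the sources used here. Cells from spleen, sorted as naive (CD4+CD25-CD62LhighCD44low), were stimulated with the peptide on spleen presenting cells that came from Il23a-/- mice and had been depleted of T cells, a host genotype shared by all groups. Th0 cells received no cytokine, Th22 cells IL-6 alone and Th17 cells IL-6 with TGFβ, and RNA was taken after 60 hours, once the cells had been purified with magnetic beads. Each condition had 1 array, so no difference below has a replicate check and no test was run. How many animals went into a culture is not given in the sources used here.

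The proteasome is a barrel-shaped protease that cuts proteins into peptides. In immune cells, and in other cells exposed to interferon γ, its catalytic subunits are exchanged for inducible ones (the immunoproteasome), which favours peptides that fit class I molecules. A transporter moves these peptides into the endoplasmic reticulum, where tapasin helps load them, while the invariant chain serves class II molecules instead, blocking their groove until they reach the endosome. Nlrc5 is a transcriptional activator of class I genes and of several genes of this pathway.

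Psmb9 and Tap1 are shown first, because they lie head to head and their starts share a promoter, so that a pair of members with different roles reads from 1 stretch of DNA. RefSeq (GRCm38.p6) places the Psmb9 window at chr17:34187281-34187580 on the minus strand, from 250 bases before the gene's start to 50 bases after it, and 275 of its 300 bases are also in the Tap1 window, read from the opposite strand. The annotated starts of both genes are 226 bases apart. The windows of Psme1 (chr14:55578244-55578543, plus strand) and Psmb8 (chr17:34197945-34198244, plus strand) are shown because each holds a match to a motif of interferon-response promoters. Capitals mark matches to GGGCGG (the GC box), CCAAT (the CCAAT box), a GAAA pair with NN between (the core of the interferon-stimulated response element) and TTCNNNGAA (the gamma-activated site), searched on both strands.
Psmb9: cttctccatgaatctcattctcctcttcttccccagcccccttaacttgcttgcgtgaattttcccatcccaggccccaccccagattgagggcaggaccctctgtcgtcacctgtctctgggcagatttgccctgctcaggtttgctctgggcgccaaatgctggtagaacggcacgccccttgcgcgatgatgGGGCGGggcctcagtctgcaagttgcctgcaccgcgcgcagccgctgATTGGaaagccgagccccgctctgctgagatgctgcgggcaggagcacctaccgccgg
Psme1: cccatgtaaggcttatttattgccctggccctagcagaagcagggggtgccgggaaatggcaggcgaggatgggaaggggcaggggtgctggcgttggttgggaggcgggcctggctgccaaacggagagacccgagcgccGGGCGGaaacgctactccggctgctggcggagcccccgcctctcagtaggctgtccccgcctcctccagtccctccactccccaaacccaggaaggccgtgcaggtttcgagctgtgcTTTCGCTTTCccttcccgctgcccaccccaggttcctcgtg
Psmb8: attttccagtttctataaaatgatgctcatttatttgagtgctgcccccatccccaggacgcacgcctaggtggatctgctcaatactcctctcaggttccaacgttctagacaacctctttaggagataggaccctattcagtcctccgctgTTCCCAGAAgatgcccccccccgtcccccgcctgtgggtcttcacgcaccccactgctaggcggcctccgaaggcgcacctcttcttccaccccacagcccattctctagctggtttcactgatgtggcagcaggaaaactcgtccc
In the stretch shared by Psmb9 and Tap1 the GC box begins 55 bases before the Psmb9 start and the CCAAT box, read as ATTGG on this strand, 8 bases before it. The match in Psme1, TTTCGCTTTC on the strand shown, begins at base 10 of the transcribed part, and that in Psmb8, TTCCCAGAA, begins 97 bases before the start. The marked motifs do not overlap each other. Of the 7 members with a promoter window in the table, 1 held the response-element core, 1 the gamma-activated site, 5 the GC box and 3 the CCAAT box. The same motifs were in 3.44%, 8.30%, 35.7% and 37.4% of 32851 promoter windows of that length. A match is a description of the sequence and shows no binding. Tap2, Nlrc5 and Cd74 are named only.

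Every member was highest in Th0, intermediate in Th22 and lowest in Th17. This order was found in 10 of 10 members and in 9.72% of all genes, or 15.6% of the 12431 genes that were not equal on all 3 arrays. It was also the order of 8 of 11 other core subunits of the proteasome and 2 of 3 constitutive catalytic subunits. Of the other activators and assembly factors 5 of 9 had it, and of the regulatory particle subunits 2 of 17. None of the genes in these lists differed by as much as 1.5-fold between Th17 and Th0. Set against Th0, 6 of 10 members had differences of 2-fold or more towards lower values in Th17 (Cd74, Psmb10, Psmb9, Tap1, Psmb8 and Nlrc5) and none was higher, against 1.56% of all genes lower by that much. At a mark of 1.5-fold it was 10 of 10 members, against 3.34% of all genes. Since the members were chosen with earlier results of these data known, the shares of all genes give scale and no independent check. The members' median difference was -1.09 log2, and that of all genes was 0. All values are as deposited, in which every probe's median over the 3 arrays was set to 0, and are taken as log2, so they carry no expression level and no level can be compared between genes. Because the RNA came from purified cells in bulk, fewer cells expressing a gene and less RNA per cell cannot be told apart.

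**Figure D1:**
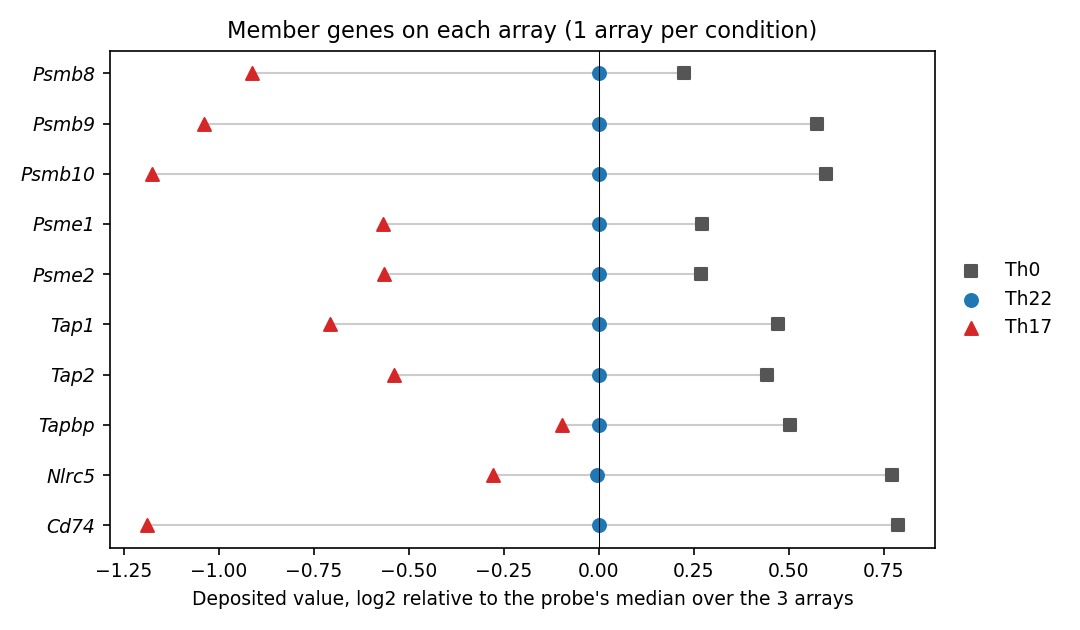
Deposited value of each member (log2, relative to the probe's median over the 3 arrays) on the Th0, Th22 and Th17 arrays, 1 array per condition, with a grey line spanning the 3 values of a gene. Th0 lies highest and Th17 lowest for all 10 members, with Cd74 and Psmb10 spread widest and Tapbp least.

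The only repeat measurement available was that between separate probes of a gene. Over the 999 genes with more than 1 probe, probes of the same gene differed with an SD of 0.19 log2 in the contrast of Th17 and Th0, 0.18 in that of Th17 and Th22 and 0.14 in that of Th22 and Th0, which leaves out the spread between cultures. Of these genes 95% lay within 0.39, 0.36 and 0.30 log2 in the same order. Genes whose probes were equal on all arrays were counted in, which narrows these limits. A single gene could lie far outside them, as Irf1 did with -1.96 and -0.34 log2 on its probes for Th17 against Th0. The 19 probes of Nlrc5 ran from -1.63 to -0.35 log2 in that comparison. The 9 members with 1 probe have no probe check of their own. All 10 members exceeded 0.39 for Th17 against Th0, the smallest difference being the -0.60 of Tapbp. This did not hold for Tapbp with its shared probes averaged in (-0.17) or for Nlrc5 by its narrowest probe alone (-0.35).

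The 3 inducible catalytic subunits had the largest differences between Th17 and Th0 of all proteasome genes listed here. Psmb10, whose product brings the trypsin-like site of the immunoproteasome, had values of 0.60 in Th0, 0 in Th22 and -1.18 in Th17, so that Th17 lay 3.42-fold below Th0. Psmb9, which encodes the inducible subunit that replaces the caspase-like one, had values of 0.57, 0 and -1.04 and was 3.06-fold lower. Psmb8, the inducible chymotrypsin-like subunit gene, had values of 0.22, 0 and -0.91 and was 2.20-fold lower. After quantile normalization the difference of Psmb8 was -0.81 log2, inside the 2-fold mark. Psmb8 stood apart from the others in Th22, where its difference from Th0 was -0.22 log2, against -0.57 for Psmb9 and -0.60 for Psmb10. Psmb10 was in place 123 and Psmb9 in place 139 among the 19938 genes ordered from the lowest difference of Th17 from Th0, and Psmb8 in place 253.

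The constitutive subunits that these replace did not share the size of the difference. Psmb6, Psmb7 and Psmb5, the counterparts of Psmb9, Psmb10 and Psmb8, differed between Th17 and Th0 by -0.15, -0.14 and -0.12 log2, inside the spread between probes. Taken as a ratio within the arrays, Th17 lay 3.09-fold below Th0 for Psmb10 relative to Psmb7, 2.76-fold for Psmb9 relative to Psmb6 and 2.02-fold for Psmb8 relative to Psmb5. For Th22 against Th0 the ratios were 1.40, 1.36 and 1.02, so Psmb8 and Psmb5 were separated by less than the spread between probes there. These ratios show unequal differences and not that a constitutive subunit stayed the same.

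**Figure D2:**
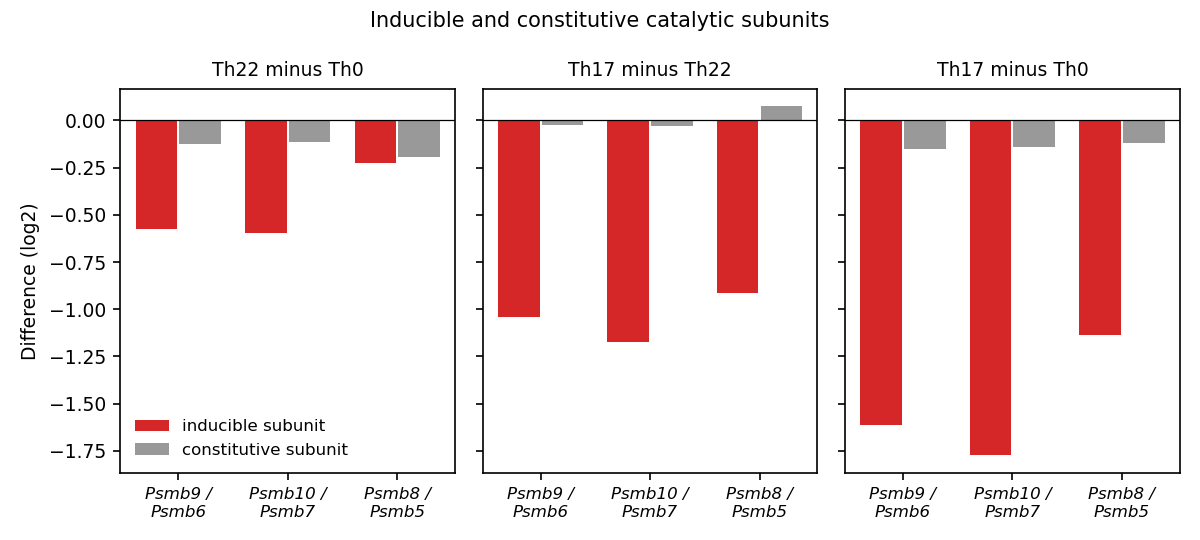
Differences (log2, bars from 0) of the 3 inducible catalytic subunits in red and of the constitutive subunits they replace in grey, for Th22 minus Th0, Th17 minus Th22 and Th17 minus Th0. The inducible subunits reach -1.77 for Psmb10, while the constitutive ones stay between -0.20 and 0.07, and Psmb8 and Psmb5 nearly coincide in the first panel.

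The rest of the proteasome was within 2-fold in all 3 comparisons. Of 11 other subunits of the core particle, all were lower in Th17 than in Th0 by some amount (0 by 2-fold), with a median of -0.29 log2 and a range from -0.43 to -0.08. The 17 measured subunits of the regulatory particle, the lid and base that unfold substrates, had a median of -0.06 log2 and ranged from -0.19 to 0.09. Among 9 other activators, inhibitors and assembly factors the lowest was Psmg4, an assembly chaperone gene, at -0.53 log2, followed by Pomp, which encodes the maturation protein, at -0.34.

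Psme1 and Psme2 encode the subunits of the ring that caps the core particle and opens it, and they gave almost the same values. Psme1 stood at 0.27 in Th0, 0 in Th22 and -0.57 in Th17, and Psme2 at 0.27, 0 and -0.56. Both were under the 2-fold mark, with Th17 1.79-fold and 1.78-fold below Th0, and their differences were 0.0067 log2 apart. A further probe that matches Psme2 and also Psme2b, a copy of it, had values of 0.18, 0 and -0.48 and was left out, since its signal cannot be assigned to one of them. The related activator genes Psme3 and Psme4 differed by 0.02 and 0.04 log2 between Th17 and Th0.

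The genes around Psme1 and Psme2 did not show the same size of difference. In the RefSeq gene order, Emc9 lies between them on chromosome 14, with values of 0 in Th0, 0.09 in Th22 and -0.03 in Th17. Over the 9 flanking protein-coding genes, taken as up to 4 on each side and the gene between, differences of Th17 from Th0 ran from -0.30 (Pck2) to 0, and 0 of 9 passed 2-fold. Irf9, which encodes a subunit of the interferon-activated transcription factor and also lies there, was at -0.15.

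Peptide transport and loading genes were also lower in Th17 than in Th0. As deposited, Tap1 differed by about as much as Psmb8, and Tapbp by the least of all members. After quantile normalization Tap1 was at -1.09 log2 and Psmb8 at -0.81. Psme1 (-0.68) and Psme2 (-0.67) then differed by less than Tapbp (-0.77). Tap1, a chain of the peptide transporter, had values of 0.47 in Th0, 0 in Th22 and -0.71 in Th17, so that Th17 lay 2.26-fold below Th0. Tap2, its partner chain, had values of 0.44, 0 and -0.54, and at 1.97-fold lower it lay just inside the 2-fold mark. Tapbp, which encodes tapasin, had values of 0.50, 0 and -0.10, so Th22 and Th17 were closer together than the spread between probes. A pair of further probes matches Tapbp and the ribosomal protein gene Rps3a1. They differed between Th17 and Th0 by 0.03 and 0.05 log2 and were left out. With them averaged in, the difference of Tapbp would be -0.17 log2 in place of -0.60, inside the spread between probes.

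Tap1 and Psmb9, which share the promoter stretch printed above, had the same order of arrays but not the same size of difference. The difference of Th17 from Th0 was -1.61 log2 for Psmb9 and -1.18 for Tap1, a gap wider than the 0.39 within which 95% of probe pairs of the same gene lay. After quantile normalization they were -1.42 and -1.09, a gap narrower than that. For Th22 against Th0 they were -0.57 and -0.47, a gap inside that spread. Psmb9, Tap1, Psmb8 and Tap2 follow each other in this order on chromosome 17, in the class II region, with H2-DMb1 before them and H2-Ob after them. The 6 measured of the 8 flanking genes, 4 on each side, differed between Th17 and Th0 by -0.33 (H2-DMa) to 0.22 (H2-Ob), and 0 of them by 2-fold. H2-Ab1, a class II chain gene of this stretch, was highest in Th22, with values of 0, 0.68 and -0.31.

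Nlrc5 was measured by 19 separate probes, which gives the closest look at probe error among the members. On the Th0 array its probes ran from 0.31 to 1.09 with a median of 0.81, on the Th22 array from -0.04 to 0 with a median of 0, and on the Th17 array from -0.74 to 0 with a median of -0.38. That Th0 did not overlap with either other array follows from the centring. Where Th0 is highest on a probe, the other arrays cannot lie above 0. Over probes of the same RNA, which are no replicates of a culture, Th22 was lower than Th0 by 0.78 ± 0.19 log2 (mean and SD, n = 19 probes) and Th17 lower than Th0 by 1.05 ± 0.38. All 19 probes were lower in Th22 than in Th0, and in 11 of 19 Th17 lay below Th0 by 2-fold or more.

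The difference between Th17 and Th22 was uneven over the Nlrc5 probes. It was -0.27 ± 0.23 log2 (mean and SD, n = 19 probes), with 17 probes lower in Th17 and 2 higher. In 11 probes Th17 was lower by 0.37 to 0.74 log2, and in the other 8 the difference lay between -0.14 and 0.04. The differences of Th22 from Th0 ran from -0.81 to -0.31 in those 8 and from -1.09 to -0.74 in the 11, and these ranges overlap. The split at 0.25 log2 was set after the values were seen.

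**Figure D3:**
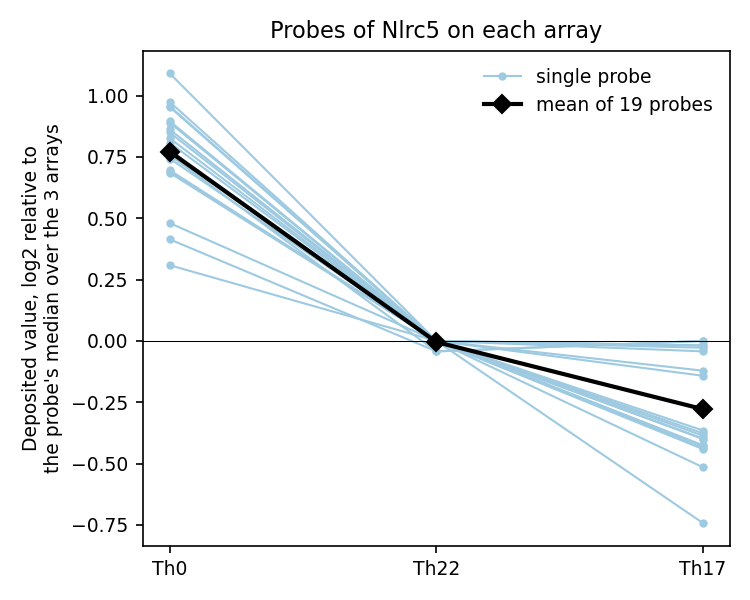
Each of the 19 probes of Nlrc5 (thin blue lines) on the Th0, Th22 and Th17 arrays, with their mean in black, as deposited log2 values relative to each probe's median. All probes are highest in Th0, from 0.31 to 1.09, and in Th17 they part into 8 near the Th22 value and 11 below it.

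Cd74, which encodes the invariant chain, had the largest difference of the members, with values of 0.79 in Th0, 0 in Th22 and -1.19 in Th17. Th17 lay 3.93-fold below Th0, and the gene was in place 102 of the 19938 genes from the lowest. The other class II genes had no difference of that size. Of 13 measured, 0 passed 2-fold in any comparison, and the median of their differences between Th17 and Th0 was 0. H2-Ab1 came closest, 1.998-fold lower in Th17 than in Th22. The members' order was that of 3 of 13 (H2-Aa, H2-Eb1 and Ifi30), against 9.72% of all genes. A probe matching H2-DMb1 and H2-DMb2 was at 0.52, 0 and 0 and was left out. Ciita, the class II activator gene, was exactly equal on all 3 arrays, as were 40.3% of probes. H2-Aa differed between Th17 and Th0 by -0.12 log2 and H2-Eb1 by -0.20. H2-Oa, a chain of H2-O, which modulates class II peptide loading, had values of 0 in Th0, 0.06 in Th22 and -0.88 in Th17.

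Cd74 is also made by B cells, macrophages and dendritic cells, and the cultures held presenting cells, so markers of these were read beside it. Of 11 measured B cell markers 7 were equal on all 3 arrays, among them Cd79a, Cd79b, Pax5 and Cd22. On the Th0 array the list ran from -0.16 to 0, on Th22 from -0.01 to 1.62 and on Th17 from -1.05 to 0.01, and the extremes of the latter arrays were those of Ebf1. Ebf1, a transcription factor gene of the B lineage, was 0 in Th0, 1.62 in Th22 and -1.05 in Th17 and so had another order than Cd74. Of 16 myeloid and dendritic markers 9 were equal on all arrays, including Itgax, Itgam, Csf1r and Cd14, and the list ran from -0.03 to 0.21 in Th0, -0.03 to 0.23 in Th22 and -0.63 to 0.04 in Th17, with Batf3 the lowest there. Lyz2 (0.21, 0 and 0), Fcgr3 (0.20, 0 and 0) and Adgre1 (0.09, 0 and 0) were highest in Th0, as the members were, and level between Th22 and Th17. Batf3, at 0.006, 0 and -0.63, was the 1 marker of the 16 in the full order of the members. The part of presenting cells in the value of Cd74 was not tested. Since centring removed the level, an equal value does not say whether a marker was expressed.

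Markers of T cells and of CD8 and NK cells were read in the same way, although centred values cannot show whether the labelled cell type's markers were expressed. Of 11 measured T cell markers none passed 2-fold, and Th17 and Th0 differed by a median of 0.0010 log2. All 11 were higher in Th22 than in Th0 (median 0.11 log2), and 9 of 11 were lower in Th17 than in Th22 (median -0.24). Cd3d at -0.59 and Cd4 at -0.55 had differences in that comparison of the size of Psme1 (-0.57), Psme2 (-0.56) and Tap2 (-0.54). Cd4 was 0 in Th0, 0.18 in Th22 and -0.38 in Th17. Among 8 markers of CD8 and NK cells 2 had Th17 below Th0 by 2-fold or more, against 1.56% of all genes. They were Gzma (a difference of -2.91 log2), a granzyme gene that T helper cells can also express, and Cd8b1 (-1.38 log2). Both stood in the order of the members, with Gzma at 0.63, 0 and -2.28 and Cd8b1 at 0.25, 0 and -1.14, as did Klrk1 at 0.57, 0 and -0.23, while Cd8a was 0.05, -0.15 and 0. At a mark of 1.5-fold 4 of 8 were lower in Th17 than in Th0, against 3.34% of all genes, with Klrk1 and Eomes (0.79, 0 and 0) added. The list ran from 0 to 0.79 in Th0, -0.15 to 0 in Th22 and -2.28 to 0 in Th17, with Ncr1, Klrb1c and Klra8 equal on all arrays. The part of such cells in the members' differences was not tested.

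Th17 was set against Th22 to describe cells given TGFβ in addition to IL-6. Cd74 (2.28-fold), Psmb10 (2.26-fold) and Psmb9 (2.05-fold) were lower in Th17, so 3 of 10 members passed 2-fold, against 1.5% of all genes lower by that much. Psmb8 at 1.88-fold and Tap1 at 1.63-fold were lower by 1.5-fold or more, making 5 of 10 at that mark against 3.37% of all genes. Psme1, Psme2 and Tap2 were 1.48-, 1.48- and 1.45-fold lower. The members' median was -0.64 log2. Under quantile normalization, which forces the same spread of values on the arrays, 0 of 10 members passed 2-fold here, and Cd74 stood at -0.73 log2.

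Th22 was compared with Th0 to describe IL-6 alone. None of the 10 members (0 of 10) passed 2-fold, against 0.261% of all genes lower by that much. Cd74 (1.73-fold), Nlrc5 (1.71-fold) and Psmb10 (1.51-fold) were lower by 1.5-fold or more, making 3 of 10 at that mark against 0.808% of all genes. Cd74 and Nlrc5 were in places 90 and 92 of 19938 genes from the lowest difference, since few genes were lower by much in Th22. The members' median was -0.49 log2. Under quantile normalization 2 of 10 passed 2-fold here, Cd74 at -1.06 and Nlrc5 at -1.04 log2, and the share of all genes lower by that much was then 0.792%.

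The members divided by which step held more of their difference, and that division depends on the scaling. On the deposited values 8 of 10 were further apart between Th22 and Th17 than between Th0 and Th22. Of the 1938 genes that were highest in Th0 and lowest in Th17, with Th22 between, 56.9% had the larger step there too. Nlrc5 and Tapbp were the exceptions, with 73.9% and 83.9% of the difference between Th0 and Th17 already present in Th22. Psmb8 lay at the other end, with 19.8%. After quantile normalization the larger step was that from Th22 to Th17 in 3 of 10 members, Psmb8, Psme1 and Psme2, and the shares of Nlrc5, Tapbp and Psmb8 were 86.1%, 92.3% and 30.9%. The order of the 3 arrays was the same in all 10 members under both scalings. The comparisons share arrays, so their values are given side by side and not correlated.

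**Figure D4:**
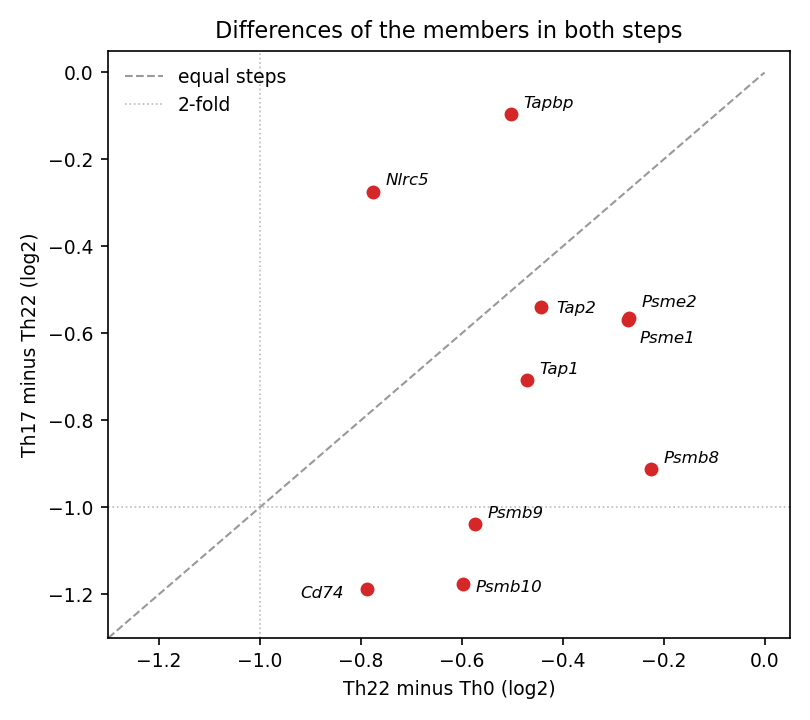
Difference of Th22 from Th0 (x axis, log2) against that of Th17 from Th22 (y axis, log2) for each member, as deposited, with the dashed line marking equal steps and dotted lines marking 2-fold. Nlrc5 and Tapbp lie above the dashed line and the other 8 below it, and Cd74, Psmb10 and Psmb9 lie below the dotted line at -1.

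Class I molecules themselves were mixed in their order over the arrays. Of 12 listed genes 6 could be read from a probe of their own. B2m, the light chain shared by class I molecules, differed by -0.09 log2 between Th17 and Th0, and H2-M3 by -0.08. H2-Q4 stood in the members' order, at 0.37 in Th0, 0 in Th22 and -0.53 in Th17. H2-T24 (0, 0.18 and -0.92), H2-Q2 (-0.02, 0.43 and 0) and H2-Q10 (0, 1.001 and -0.07) were highest in Th22. All 6 were lower in Th17 than in Th22, with a median of -0.48 log2. In that comparison 2 of 6 passed 2-fold, H2-T24 at -1.10 log2 and H2-Q10 at -1.07. The share of all genes lower by that much was 1.5%. These genes have close relatives, so their signal is uncertain. A pair of probes matching both H2-K1 and H2-D1 had differences of -0.32 and -0.35 log2 between Th17 and Th0 and could not be assigned to either gene. The difference was -1.34 for a probe matching H2-Q6 and H2-Q8 and -0.47 for one matching H2-T23 and H2-T-ps, while a probe matching H2-Q1 and H2-Bl was at 0, 0.06 and -0.10.

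Among 8 other class I loading and trimming genes, 2 lay below Th0 in Th17 by 2-fold or more and none above. The share of all genes lower by that much was 1.56%. Erap1, which trims peptides in the endoplasmic reticulum, had values of 0.54, 0 and -0.64 and was 2.27-fold lower. Tapbpl, a relative of tapasin that edits class I peptides, had values of 0.23, 0 and -0.83 and was 2.09-fold lower. The general chaperones of the loading complex, Calr, Canx and Pdia3, differed by -0.01, -0.0022 and 0.02 log2.

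Interferon γ is the best known inducer of this pathway, and its gene stood in the members' order with a larger difference. Ifng had values of 3.06 in Th0, 0 in Th22 and -0.66 in Th17 so that Th17 lay 13.2-fold below Th0. On the deposited values its larger step was that from Th0 to Th22. As deposited, 2 of 10 members had the larger step there and 8 of 10 had it from Th22 to Th17. After quantile normalization the members' counts were 7 and 3, and the step of Ifng under that scaling is not given here. The part of interferon γ in the members' differences was not tested. Of 12 measured genes of interferon γ and its signalling, 3 lay below Th0 in Th17 by 2-fold or more (Ifng, Tbx21 and Irf1). None lay above by that much, and 1.56% of all genes were lower by that much. Tbx21, a transcription factor gene that drives Ifng, had values of 1.18, 0 and -2.66. Irf1, a factor that acts on promoters of this pathway, had probes that disagreed: the difference of Th17 from Th0 was -1.96 log2 on 1 probe and -0.34 on the other. The members' order was that of 6 of 12 (Ifng, Tbx21, Irf1, Jak2, Irf9 and Socs1), against 9.72% of all genes. The receptor genes Ifngr1 and Ifngr2 had the opposite order to the members, at -0.49, 0 and 0.16 and at -0.28, 0 and 0.42. Irf8 was lowest in Th22 (0.28, -0.74 and 0), where it was 2.04-fold lower than in Th0.

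Genes of promoter factors that work with Nlrc5 and the class II activator were read last. Of 8 genes, Nlrc3 included and with Rfx5, Rfxap, Rfxank and the Nfy subunit genes among them, 0 passed 2-fold in any comparison, with a median of 0.03 log2 for Th17 against Th0. Nlrc3, a relative of Nlrc5, had the reverse order, at -0.58 in Th0, 0 in Th22 and 0.29 in Th17.

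**Figure D5:**
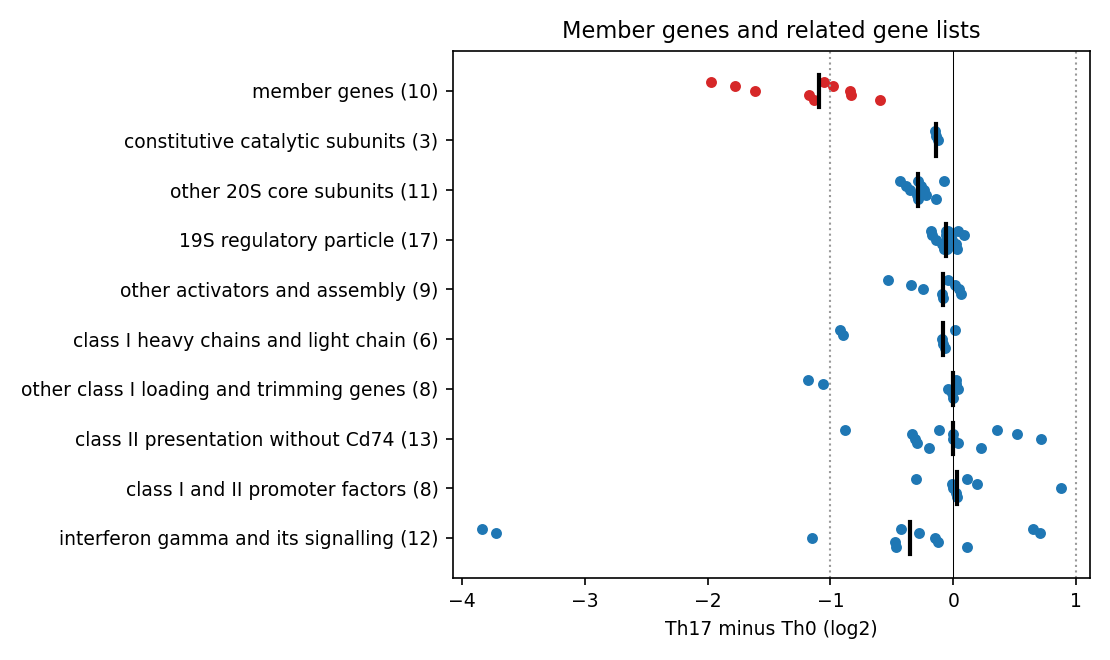
Difference of Th17 from Th0 (log2) for the members in red and for 9 related gene lists in blue, each point 1 gene, with the number measured in brackets, a black bar at the list's median and dotted lines at 2-fold. The members' median lies at -1.09, and the medians of the other lists lie between -0.35 and 0.03.

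For the 6 members past 2-fold, the 5 genes nearest in pattern were taken by Euclidean distance over the 3 pairwise differences among all genes measured, which rests on 3 arrays. Tap1 had Aff3 (0.02 log2 away), Xaf1, Dusp5, Prdm1 and Erap1, the last a gene of the same pathway at a distance of 0.10. Psmb8 had Nr4a2 (0.07), Pim2, Paqr4, Tapbpl (0.11) and Eif2ak2. Psmb9 had Ptgir (0.08), Prkca, Mboat1, Ccn4 and Sik1, and Psmb10 had Ptgir (0.18), Gbp9, Sema4c, Ccl5 and Plk2. Nlrc5 had Tbkbp1 (0.06), Il24, Enc1, Zfp280b and Ifi203, and Cd74 had Slco4a1 (0.16), D630039A03Rik, Ccl5, Vav3 and Plk2. Ccl5 and Plk2 were near both Psmb10 and Cd74, which are on different chromosomes, 8 and 18.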

How the data were processed

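Total RNA of 3 mouse CD4 T cell samples was measured on single-colour, biotin-labelled Affymetrix arrays, 1 per condition, per the labels. The deposited table held 28853 probes with values taken as log2 and centred by the authors: the median over the 3 arrays was 0 for all 28853 probes. The sources used here give neither log base, background correction, normalization nor software. A fold is 2 to the power of the difference, and higher values were read as more RNA. Of the probes 11627 (40.3%) were equal on all arrays. Signal over background and depth are unknown, and precision is limited by the number of arrays.

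Symbols came from the platform annotation and were updated by Entrez identifier with the RefSeq gene table of GRCm38.p6, which matched 21698 of 21789 probes with 1 symbol. The 1621 probes with several symbols and 5443 without a listed one were left out. Members, lists and tests were chosen with earlier results of these data known, and the neighbouring genes, 4 on each side, and the promoter motifs after the values were seen. Named genes were the members, list genes at least 2-fold apart (at most 6 a list), the constitutive subunits, class I genes, Ifng, Irf1 and Ciita, and the 5 nearest genes. A few further list genes are named as examples, chosen after their values were seen. No test was run on single arrays. The counting was tested on simulated data. Python 3.11.15, pandas 2.3.3 and numpy 2.4.6 were used.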

Additional observations from a re-analysis of the deposited data

How the results depend on the processing

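No paired analysis was possible because each condition had 1 array, and leaving out a replicate could not be tried for the same reason. All 30 member differences (10 genes in 3 comparisons) stayed below 0 under quantile normalization, the only alternative that could turn the sign of most members, since probe choice bears on Nlrc5, Psme2 and Tapbp alone and a log base on no sign. Quantile normalization left 0 members past 2-fold for Th17 against Th22 (median -0.39 log2, with 1.01% of all genes lower). It left 2 for Th22 against Th0 (median -0.68, with 0.792% of all genes lower) and 5 for Th17 against Th0 (1.09%). For Th17 against Th0 Psmb8 was the member no longer past 2-fold, at -0.81 log2 against -1.14 as deposited. Quantile normalization moved 18 of the 30 differences by more than the SD between probes (0.14 to 0.19 log2), a smaller mark than the 95% limits. The cause of this was not tested. With it, 202 genes were lower and 197 higher for Th17 against Th22, 158 and 150 for Th22 against Th0, and 218 and 202 for Th17 against Th0. Values read as natural logs would put 5, 2 and 9 members past 2-fold in the same order, with medians of -0.92, -0.70 and -1.58 on the log2 scale and 2.60%, 0.552% and 2.66% of all genes lower. A 1.5-fold mark gave 5, 3 and 10 members, and a 3-fold mark 0, 0 and 3, where 0.697%, 0.110% and 0.722% of all genes were lower. Shifting the arrays by the median of the genes that were not equal could move nothing, as these medians were at or near 0. Averaging in the probes with several symbols moved Tapbp from -0.50 to -0.14 log2 when Th22 was set against Th0, and from -0.60 to -0.17 when Th17 was. With the narrowest probe Nlrc5 stood at -0.35 log2 for Th17 against Th0, leaving 5 members past 2-fold.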
